A study of Mus musculus with 3 samples.

Results

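Axon guidance ligands and receptors were followed in RNA sequencing of mouse cornea, the clear window of the eye. The members were the protein-coding genes of the deposited table whose symbols name a semaphorin of class 3 to 7, a plexin, a neuropilin, an Eph receptor, an ephrin, a Slit, a Robo, a netrin, an Unc5 receptor, Dcc or Neo1, and 63 of the 21760 genes met that rule. Epha3, Epha5, Epha6, Epha10, Robo3, Unc5d and Dcc were not analysed here. There were 3 libraries, 1 in each group. The sham library came from mice with an incision in the same place and intact glands, the excision library from mice whose lacrimal gland, the main source of tears, had been removed, and the third from mice given PNU-282987, which activates α7 nicotinic receptors, as eyedrops 3 times daily. The labels give no strain, age or time, and give neither the state of the glands in mice given PNU-282987 nor the number of corneas per library. The study asked how the α7 receptor regulates dry eye disease.

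Axon guidance molecules are paired ligands and receptors that steer growing axons by attraction or repulsion. Semaphorins act on plexins, the secreted class 3 members with a neuropilin as co-receptor. Ephrins act on Eph receptor kinases through contact between cells, Slits on Robo receptors, and netrins on Dcc, Neo1 and the Unc5 receptors. Epithelial, stromal and vascular cells also use these molecules, for cell sorting, migration and vessel growth, and the cornea is densely supplied with sensory axons whose cell bodies lie outside it.

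The sham library held 37703843 counts, the excision library 37692972 and the PNU-282987 library 39616004, and levels are CPM, counts per 1000000 counts of the library after scaling for composition. Values in sets of 3 are in the order sham, excision and PNU-282987 throughout. Members together took 0.207%, 0.245% and 0.211% of the counts. Each ratio is between 2 libraries and comes with a 95% interval that covers counting error only, since no group had a second library and the spread between animals could not be measured. A gene with at least 20 counts in some library was treated as measured, and a call of higher or lower required a ratio of at least 2-fold with an interval that left out equality. Corneal epithelial markers were abundant in all 3 libraries (summed 81554, 75635 and 88338 CPM, with 0 of 10 called in any comparison). The libraries differed in RNA of markers of other tissues. In excision, all 11 measured lens markers were lower than in sham (summed 483, 19.3 and 418 CPM, with Birc7 and Mip at 0 in excision), as were 8 of 10 retina markers (22.9, 7.65 and 36.4 CPM) and 7 of 8 corneal endothelial markers (1797, 863 and 1562 CPM). Conjunctival goblet and gland markers were higher in PNU-282987 than in sham for 7 of 8 genes (103, 162 and 490 CPM, with Tff1 at 0 in sham and Muc5b in excision). Muc5ac, Muc5b, Gp2 and Tff1 of this list reached 20 counts only in PNU-282987, the library in which they are high. Sensory neuron and axon markers were barely detected, at 0.896, 1.70 and 1.13 CPM in all, and only P2rx3 of 9 genes was measured. That gene, an ion channel of sensory neurons, had 18, 47 and 30 counts and was called higher in excision than in sham (2.75-fold, 1.57 to 5.03). Of these 9, Nefh, Prph and Trpm8 were at 0 in sham, Scn9a and Tubb3 in excision, and Prph, Scn9a and Trpm8 in PNU-282987.

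Of the 63 members, 49 were measured and 16 had at least 1000 counts in every library. Calls fell on 10 of the 49 in at least 1 comparison (15.9% of all 14180 measured genes were called in at least 1). These were Slit2, Sema3a, Nrp2, Plxna4, Plxnc1, Plxnd1, Ephb1, Efnb3, Ntn3 and Unc5c. The other 39 differed between their highest and lowest library by 1.06-fold to 1.86-fold, with a median of 1.40-fold. Genes with the most counts among the members were not among those called: Slit2, at 942 counts in sham, was the most abundant called gene by counts.

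**Figure D1:**
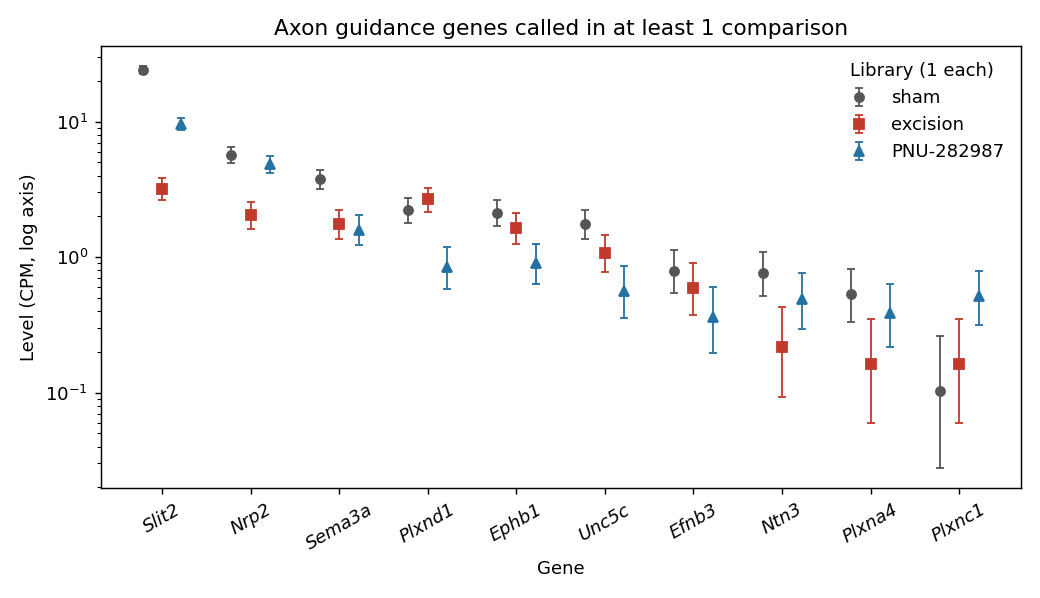
Level of the 10 called axon guidance genes in CPM (log axis), 1 point per library (grey circle sham, red square excision, blue triangle PNU-282987), with 95% Poisson intervals for counting error as bars. Slit2 spans 24.1 CPM in sham to 3.18 CPM in excision, whereas Plxnd1 and Plxnc1 depart in the PNU-282987 library, in opposite directions.

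The sequences just upstream of the start of 5 called members are shown because they were called on at least 100 counts (Slit2, Nrp2 and Sema3a) or, for the plexin pair, in opposite directions. They are RefSeq promoter entries on GRCm38.p6, 5′ to 3′, for Slit2 (chr5:47982905-47983137 on the plus strand), Nrp2 (chr1:62703067-62703284 on the plus strand), Sema3a (chr5:13396534-13396783 on the plus strand), Plxnc1 (chr10:94944846-94945095 on the minus strand) and Plxnd1 (chr6:115995006-115995255 on the minus strand), and 55 of the 63 members had an entry. The window is the 250 bases before the RefSeq start, cut at the first base that GENCODE M21 places in an exon, which left 233 bases for Slit2 and 218 for Nrp2. Capitals mark the GC box GGGCGG, the TATA box TATAAA and the E-box CACGTG, each on either strand, and neighbouring GC boxes may overlap.
Slit2: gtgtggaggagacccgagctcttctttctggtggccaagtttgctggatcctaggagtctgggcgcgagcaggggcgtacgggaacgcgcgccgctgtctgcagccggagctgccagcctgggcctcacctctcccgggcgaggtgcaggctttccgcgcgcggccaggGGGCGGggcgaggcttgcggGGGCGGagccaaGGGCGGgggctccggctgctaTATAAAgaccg
Nrp2: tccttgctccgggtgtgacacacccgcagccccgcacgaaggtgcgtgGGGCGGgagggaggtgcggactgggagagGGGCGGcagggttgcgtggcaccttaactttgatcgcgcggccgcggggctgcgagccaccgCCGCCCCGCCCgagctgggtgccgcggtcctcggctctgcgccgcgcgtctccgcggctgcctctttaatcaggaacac
Sema3a: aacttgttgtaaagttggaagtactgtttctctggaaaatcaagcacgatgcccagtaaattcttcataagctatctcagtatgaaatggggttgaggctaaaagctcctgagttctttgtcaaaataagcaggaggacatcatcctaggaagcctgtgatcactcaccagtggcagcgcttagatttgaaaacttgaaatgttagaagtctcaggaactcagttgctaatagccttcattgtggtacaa
Plxnc1: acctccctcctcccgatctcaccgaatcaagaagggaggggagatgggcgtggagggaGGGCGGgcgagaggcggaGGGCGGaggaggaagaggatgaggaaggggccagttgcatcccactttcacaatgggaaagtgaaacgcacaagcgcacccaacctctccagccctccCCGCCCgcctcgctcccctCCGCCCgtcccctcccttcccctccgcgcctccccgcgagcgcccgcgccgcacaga
Plxnd1: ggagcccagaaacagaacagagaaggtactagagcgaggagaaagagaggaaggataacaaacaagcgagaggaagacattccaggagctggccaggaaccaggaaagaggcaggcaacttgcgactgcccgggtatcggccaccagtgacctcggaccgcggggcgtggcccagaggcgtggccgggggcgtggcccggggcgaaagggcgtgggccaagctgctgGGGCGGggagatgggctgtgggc
The Slit2 window holds 3 GC boxes and 1 TATA box close to its 3′ end. Nrp2 has 4 GC boxes and 0 TATA boxes. The Sema3a window has 0 of any of these motifs and a GC content of 40.8%, against 70.4% for Slit2 and 72.5% for Nrp2, so the 3 genes that were lower in excision on the largest counts share no motif of these across all 3 windows. The plexin pair differs as well, with 4 GC boxes for Plxnc1 and 1 for Plxnd1. Over full windows of 250 bases a GC box was found in 53.3% of the 13155 promoters of protein-coding genes in the table and 72.7% of the member promoters, a TATA box in 8.25% and 3.64%, and the E-box in 7.78% and 5.45%. A match is a run of letters and was not tested as a binding site.

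The comparison of excision with sham asks which members differ once the gland is gone. Slit2, Sema3a, Ntn3, Nrp2 and Plxna4, 3 secreted ligands, a co-receptor and a plexin, were lower in the excision library: of the 49 measured members, 5 were called lower (10.2%, where 5.48% of all measured genes were) and 0 higher (4.01% of all measured genes). Among the 38 members with at least 100 counts in a library, 3 were called lower (2.74% of all genes with as many counts). The median log2 ratio of the measured members was 0.08, and that of all measured genes was 0.00, so the middle of the members lay near equality.

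Slit2 (gene ID 20563), a secreted repellent that binds Robo receptors, had 942, 118 and 371 counts, or 24.1, 3.18 and 9.55 CPM. The 3 libraries are well separated, with sham highest and excision lowest. Excision was 7.59-fold below sham (95% interval 6.26 to 9.27). The paralog Slit3 showed no such gap, with 92, 111 and 108 counts, and excision over sham was 1.27-fold (0.954 to 1.69). Slit1 had 1, 9 and 0 counts and was not measured. As these are bulk samples, fewer cells of a type and less RNA per cell cannot be told apart for Slit2 or any gene below.

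Corneal endothelial markers, as a sum, had the same order as Slit2 over the 3 libraries (1797, 863 and 1562 CPM). In PNU-282987 against sham, 1 of 8 of these markers was called lower, whereas Slit2 was 2.52-fold lower. Among them Car3 had 16340, 1519 and 15454 counts, and Col8a2, a collagen of Descemet's membrane, had 12972, 2555 and 7930. Keratocyte and stromal markers were lower in excision for 4 of 10 genes (summed 1910, 1281 and 1397 CPM), and no marker of this list or of the endothelial list was at 0 in any library. The part of lens, endothelial and stromal tissue in the Slit2 difference was not tested.

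Nrp2 (gene ID 18187), a co-receptor for class 3 semaphorins and for the lymphatic growth factor VEGF-C, had 221, 76 and 189 counts. Only the excision library was low, 2.76-fold below sham (2.12 to 3.64). Its relative Nrp1, the co-receptor used by Sema3a, had 264, 166 and 199 counts and was 1.51-fold lower (1.24 to 1.85), which was under the 2-fold limit. Of 6 measured markers of blood and lymph vessels, excision had 1 called above and 1 called below sham. Their list had summed levels of 7.17, 8.97 and 7.42 CPM, with Emcn and Tek at 0 in sham. The marker called lower was Kdr, the VEGF receptor that pairs with neuropilins. The marker called higher was Lyve1, with 2, 23 and 1 counts (12.1-fold, 2.99 to 106). Lyve1 and Pecam1, a marker not called here, reached the count minimum only through excision, the library in which they are high. The median log2 ratio of the 6 markers, these 2 among them, was 0.95. The part of vessel or other tissue in the Nrp2 difference was not tested.

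Sema3a (gene ID 20346), a secreted repellent of sensory axons, had 146, 65 and 62 counts. Sham was high and the other libraries were alike. Excision was 2.14-fold below sham (1.58 to 2.91). The remaining class 3 semaphorins were not called: Sema3b had 281, 172 and 188 counts, Sema3c 472, 340 and 409, Sema3d 337, 281 and 449, Sema3e 19, 31 and 18, and Sema3f 3735, 4657 and 3141. Sema3b was also highest in sham, by a smaller size (1.55-fold lower in excision, 1.28 to 1.89), while Sema3f, the most abundant of the class and the usual partner of Nrp2, went the other way at 1.31-fold higher (1.26 to 1.37).

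Plxna4 and Ntn3 were called on low counts. Plxna4, a plexin that pairs with neuropilins, had 21, 6 and 15 counts (3.33-fold lower in excision, 1.30 to 10.1). Ntn3, a netrin, had 30, 8 and 19 (3.56-fold lower, 1.597 to 8.998). Both repeated the order of Slit2, lowest in excision and between in PNU-282987, but their wide intervals leave the size uncertain. Both reached the count minimum of 20 only through sham, the library in which they are high. In RefSeq Ntn3 overlaps the protein-coding gene Tbc1d24, Slit2 and Ephb1 each overlap a microRNA gene, and Nrp2, Sema3a, Plxna4, Ephb1 and Unc5c overlap 1 or more long noncoding RNA genes, so reads could be shared between these genes if counting ignored strand.

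Several abundant receptors had higher counts in excision than in sham, all by less than 2-fold. Ephb3 (gene ID 13845), a receptor for ephrin-B ligands, had 4809, 8516 and 5582 counts. It stood highest in excision by 1.86-fold over sham (1.80 to 1.93), the member closest to the limit from the upper side. Unc5b, a netrin receptor, was 1.61-fold higher (661, 1010 and 738 counts, 1.46 to 1.78), Plxnb1, the Sema4d receptor, 1.499-fold (5185, 7388 and 5261 counts, 1.45 to 1.55) and Plxnb2 1.42-fold (17012, 23040 and 22403 counts, 1.40 to 1.45). Counting error is small for these 4 genes, and the spread between corneas that they would have to exceed is unknown.

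**Figure D2:**
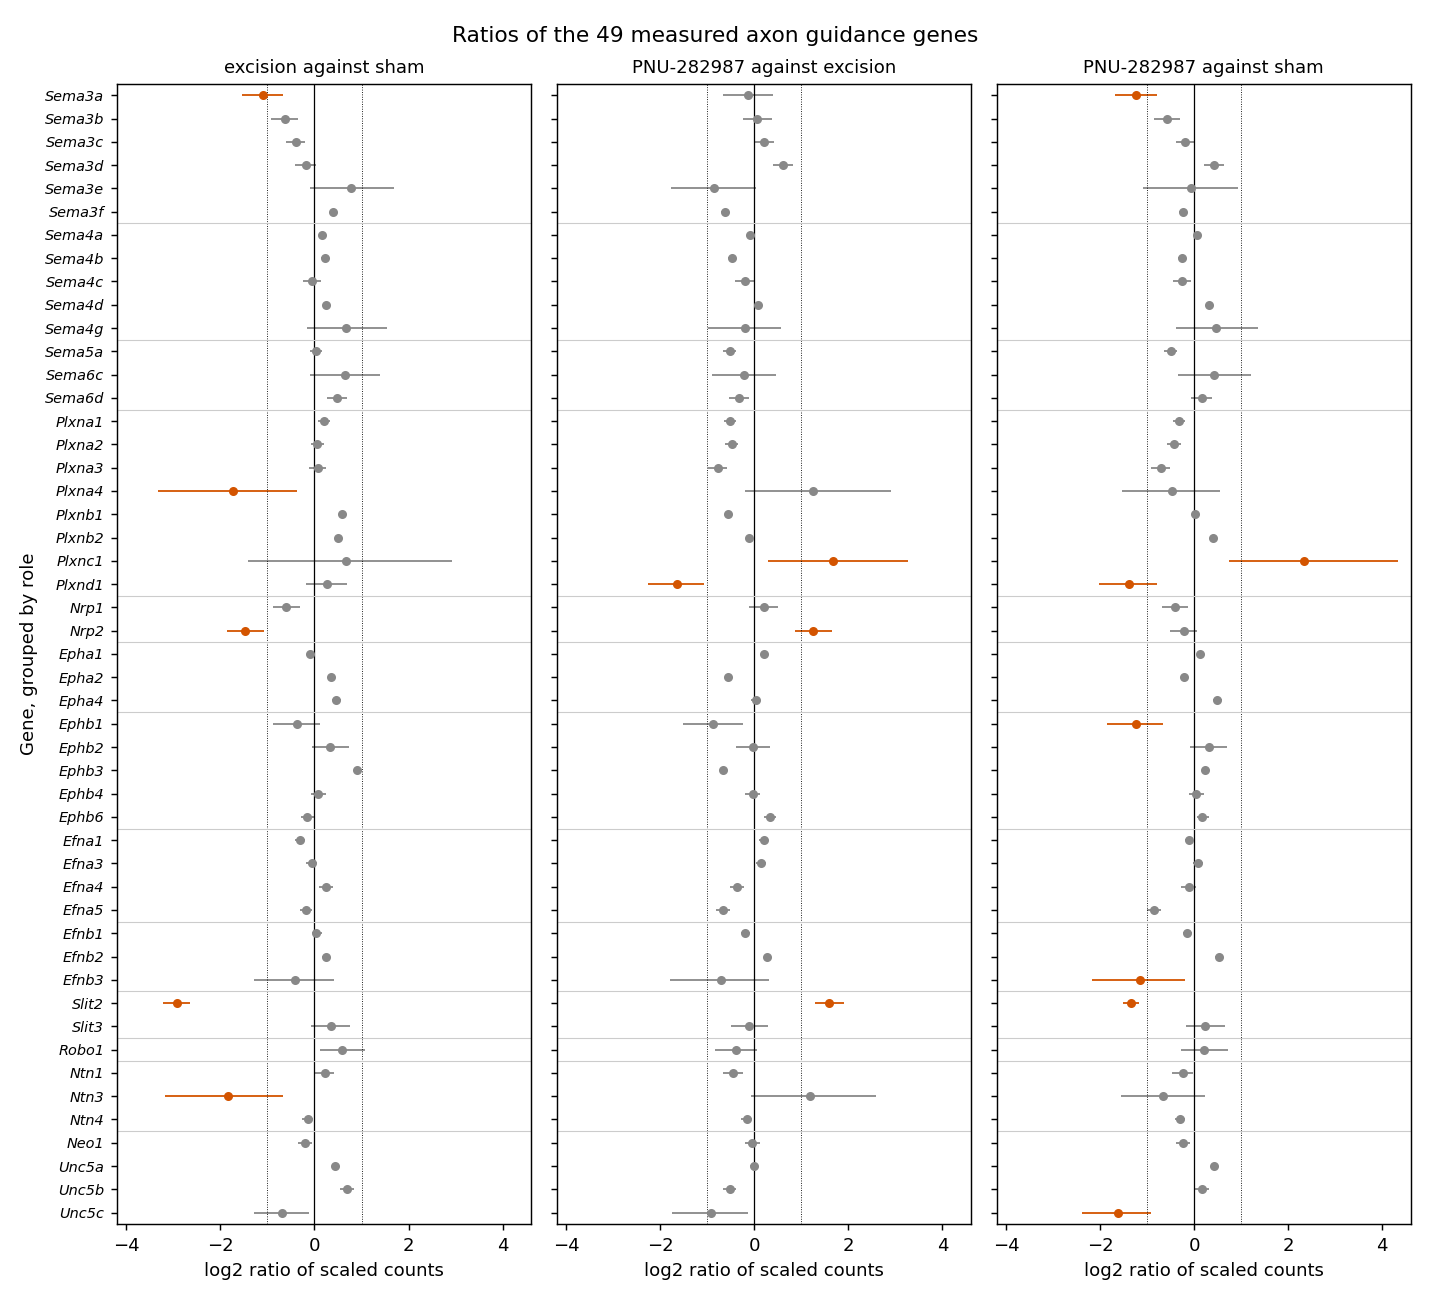
Log2 ratio of scaled counts for the 49 measured axon guidance genes, grouped by family, in each of the 3 comparisons, with 95% counting intervals as bars, dotted lines at 2-fold, and orange for called genes. In excision against sham 5 genes are called, from Slit2 at -2.92 to Sema3a at -1.09, while Ephb3 stops short of the limit at 0.90.

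PNU-282987 against excision asks what differs between a cornea given the agonist and one without its gland. Of the 49 measured members 3 were called higher (6.12%, with 3.90% of all measured genes) and 1 lower (2.04%, with 5.62%). On at least 100 counts 2 of 38 members were higher (1.96% of genes with as many counts). Slit2 was 3.01-fold higher (2.44 to 3.73) and Nrp2 2.38-fold higher (1.81 to 3.14), both from the low excision value that the first comparison also uses, so the 2 comparisons share a library and are not separate evidence. Sema3a did not join them, at 1.10-fold lower (0.762 to 1.58). Endothelial markers were higher in PNU-282987 than in excision for 6 of 8 genes and lens markers for 11 of 11, and their part was not tested.

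The plexins split in this comparison. Plxnd1 (gene ID 67784), a receptor for Sema3e that is best known from blood vessels, had 87, 99 and 33 counts. Sham and excision were alike and PNU-282987 was low, 3.14-fold below excision (2.10 to 4.81). Plxnc1 (gene ID 54712), the receptor for Sema7a, had 4, 6 and 20 counts, high in PNU-282987 alone, 3.19-fold above excision (1.23 to 9.70). Its ligand Sema7a was under the count minimum at 4, 14 and 19 counts. Plxnc1 reached that minimum only through PNU-282987, the library in which it is high. Of 6 measured vessel markers 2 were lower in PNU-282987 than in excision and 0 higher. Lyve1 and Pecam1, the 2 called lower, reached the count minimum only through excision, the library in which they are high. Pecam1 had 19, 36 and 10 counts, whereas Kdr had 144, 55 and 89 and Egfl7 had 24, 43 and 55. Against sham, where Plxnd1 was also lower in PNU-282987, 1 vessel marker was higher and 0 were lower (summed 7.17, 8.97 and 7.42 CPM). The part of vessel tissue in the Plxnd1 difference was not tested.

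Some abundant members had lower levels in PNU-282987 than in excision, again by less than 2-fold. Ephb3 was 1.60-fold lower (1.54 to 1.65), Plxna3, a receptor for class 3 semaphorins, 1.71-fold lower (529, 526 and 321 counts, 1.49 to 1.98) and Sema3f 1.55-fold lower (1.48 to 1.62). Epha2, an epithelial Eph receptor, was 1.48-fold lower (5694, 6921 and 4882 counts, 1.43 to 1.54). The median log2 ratio of the measured members was -0.16, against 0.01 for all measured genes.

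PNU-282987 against sham asks how far the treated cornea departs from one with intact glands. More members were called here than in the other comparisons, and mostly lower: 6 of 49 lower (12.2%, with 4.96% of all measured genes) and 1 higher (2.04%, with 2.58%). On at least 100 counts 2 of 38 were lower (1.74% of genes with as many counts), Slit2 at 2.52-fold (2.24 to 2.85) and Sema3a at 2.34-fold (1.73 to 3.205). Slit2 thus lay between the other libraries in PNU-282987, and Sema3a lay at its excision level. The median log2 ratio of the measured members was -0.14, against 0.00 for all measured genes.

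The 4 further genes called lower were receptors and a ligand with fewer than 100 counts. Unc5c, a netrin receptor that mediates repulsion, had 68, 40 and 22 counts (3.07-fold lower in PNU-282987 than in sham, 1.88 to 5.22). Plxnd1 was 2.62-fold lower (1.74 to 4.04). Ephb1, an Eph receptor with roles in neurons and vessels, had 83, 61 and 35 counts (2.36-fold lower, 1.57 to 3.61), and its ligand family member Efnb3 had 31, 22 and 14 (2.20-fold lower, 1.14 to 4.48), above the count minimum in sham and excision only. Unc5c, Ephb1 and Efnb3 share one order, with sham highest, excision between and PNU-282987 lowest. Plxnc1 was the gene called higher, at 5.03-fold (1.68 to 20.2), again on 20 and 4 counts.

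Beside these genes, red blood cell markers were lower in PNU-282987 than in sham for 4 of 5 genes (summed 71.8, 17.2 and 9.61 CPM), neutrophil markers for 4 of 6 although their sum was not (47.9, 29.0 and 55.8 CPM) and pigment cell markers for 2 of 3 (9.83, 7.54 and 5.85 CPM, with Slc45a2 at 0 in PNU-282987 and Tyr at 0 in excision). Schwann cell markers had 0 of 6 called in any comparison (374, 444 and 443 CPM, with Cdh19 at 0 in sham and PNU-282987), and skeletal muscle markers 0 of 1. The part of blood or pigment tissue in the lower members was not tested. Efna5, an ephrin-A ligand, had 1045, 879 and 580 counts and came closest to a further call at 1.79-fold lower (1.62 to 1.99). Efnb2, a ligand of EphB receptors and of Epha4, went the other way with 2152, 2426 and 3071 counts (1.44-fold higher, 1.36 to 1.52), and Epha4 had 1581, 2075 and 2211 (1.41-fold higher, 1.32 to 1.501).

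**Figure D3:**
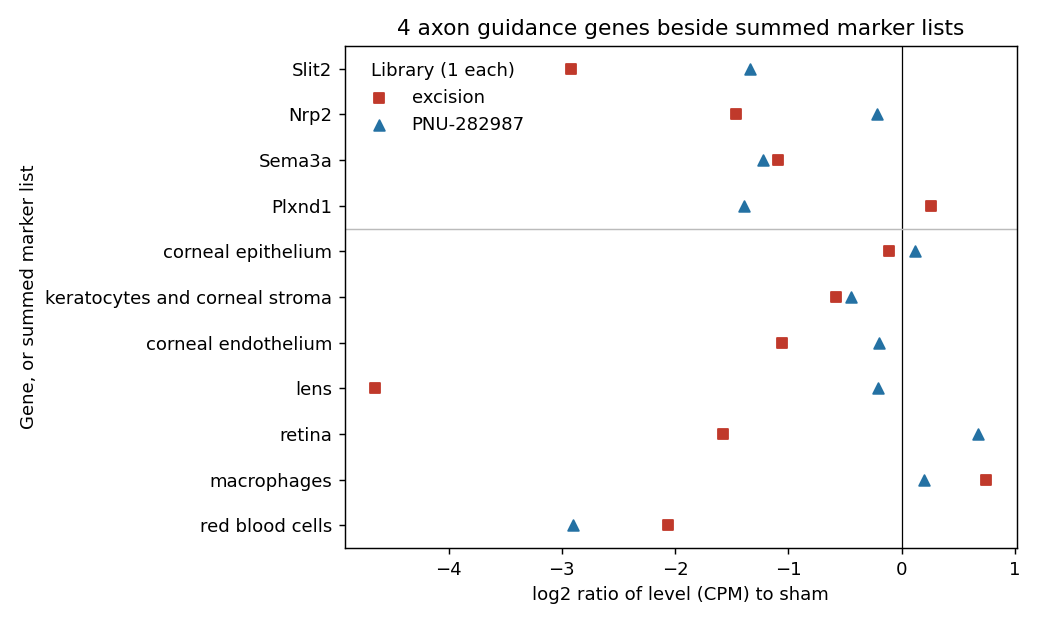
Log2 ratio to sham of the level of Slit2, Nrp2, Sema3a and Plxnd1 and of summed marker lists, in excision (red squares) and PNU-282987 (blue triangles). Slit2, Nrp2 and the lens, retina and corneal endothelium lists are lower in excision than in PNU-282987; Sema3a has similar values in both, and Plxnd1 is low in PNU-282987 alone.

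Levels between members were compared per kilobase of exon, with exon lengths taken by symbol from GENCODE M21, which may differ from the authors' gene models. Plxnb2, a receptor for class 4 semaphorins, was the most abundant member in all 3 libraries, at 56.4, 80.4 and 74.7 CPM per kilobase. Its family spanned a wide range: Plxnb1 followed at 13.8, 20.7 and 14.1, Plxna1 at 3.17, 3.64 and 2.55, and Plxnc1 lay at 0.0123, 0.0194 and 0.0617 CPM per kilobase. Class 4 ligands were present beside these receptors, with Sema4a at 20.2, 22.6 and 21.3 and Sema4d, the ligand of Plxnb1, at 16.4, 19.4 and 20.3 CPM per kilobase.

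Eph receptors and ephrins ranged from abundant to scarce on this scale. Epha2 had 31.2, 39.9 and 26.9 CPM per kilobase, Epha1 27.8, 25.9 and 30.1, and their ligand Efna1 27.0, 21.8 and 25.1. Ephb3 was at 18.5, 34.5 and 21.6 CPM per kilobase, beside its ligands Efnb1 at 13.1, 13.5 and 11.9 and Efnb2 at 8.04, 9.53 and 11.5. Epha2 led the Eph receptors in sham and excision, and Epha1 did in PNU-282987. None of these genes was called in any comparison. The called members of the family were scarce, with Ephb1 at 0.304, 0.235 and 0.129 CPM per kilobase and Efnb3 at 0.249, 0.186 and 0.113, as was Ephb2 at 0.211, 0.267 and 0.261.

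The Slit, neuropilin and Robo genes were scarce on this scale, all below 1 CPM per kilobase. Slit2 was at 0.948, 0.125 and 0.376 CPM per kilobase and Slit3 at 0.388, 0.493 and 0.458. Their order here depends on the exon lengths used, 25433 bases for Slit2 and 6067 for Slit3. In CPM, without length, Slit2 was above Slit3 in every library (24.1, 3.18 and 9.55 against 2.36, 2.99 and 2.78). Nrp1 (0.691, 0.457 and 0.524) was above Nrp2 (0.478, 0.173 and 0.411) throughout. Robo1, the one Robo receptor measured, was at 0.102, 0.155 and 0.119 CPM per kilobase, from 66, 95 and 76 counts. Among netrin genes the receptor Unc5a was the most abundant, at 15.8, 21.4 and 21.2 CPM per kilobase, above the ligands Ntn4 (9.71, 8.78 and 7.87) and Ntn1 (1.54, 1.79 and 1.30) and the receptors Unc5b (2.70, 4.35 and 3.04) and Neo1 (2.3002, 1.997 and 1.94).

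**Figure D4:**
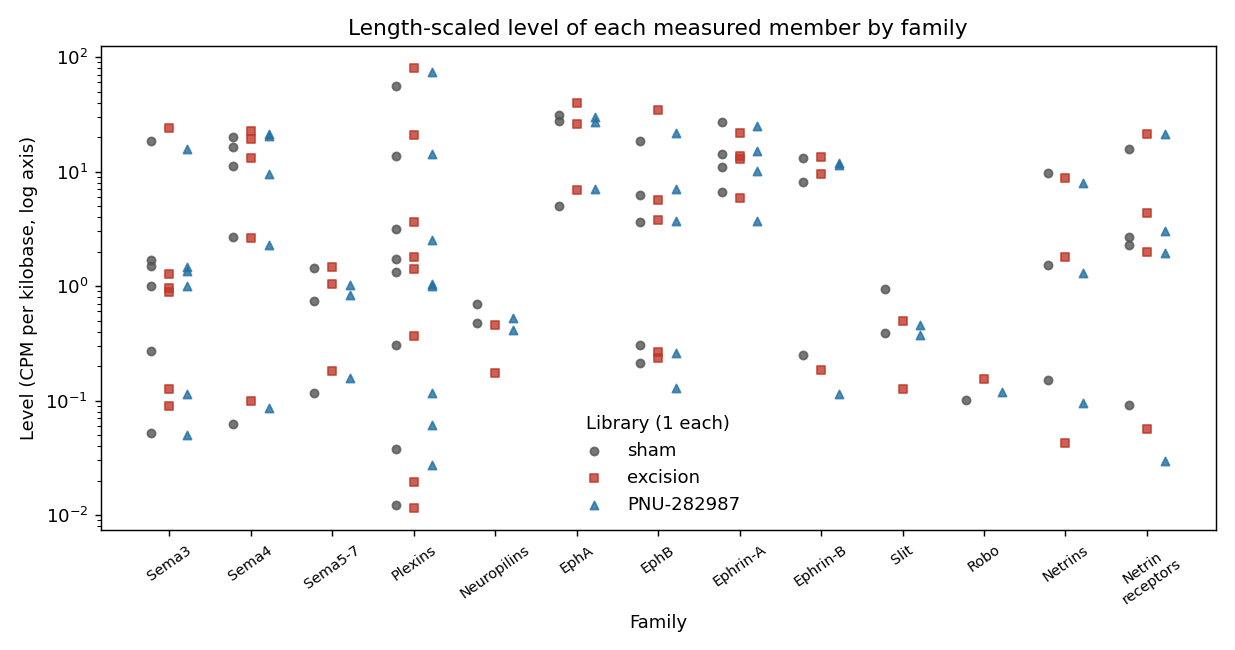
Length-scaled level (CPM per kilobase, log axis) of each measured axon guidance gene by family, 1 point per gene and library. Plxnb2 tops the plot at 56.4 to 80.4, and the same family reaches down to Plxna4 and Plxnc1 below 0.1.

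None of the members that follow was called in any comparison. Sema4a had 4261, 4539 and 4465 counts, Sema4b 2501, 2767 and 2088, Sema4c 485, 445 and 404, Sema4d 4928, 5529 and 6061, and Sema4g 21, 32 and 29. Sema5a, an adhesive semaphorin with thrombospondin repeats, had 1048, 1015 and 741, Sema6c 27, 40 and 36, and Sema6d 308, 407 and 342. Among receptors Plxna1 had 1121, 1223 and 896 counts, Plxna2 900, 893 and 668, Epha1 4262, 3781 and 4599, Ephb2 104, 125 and 128, Ephb4 652, 656 and 670, and Ephb6 922, 789 and 1038. Ephb4, the main Efnb2 receptor of veins, varied least of all measured members, by 1.06-fold. Among ligands Efna1 had 1933, 1484 and 1782, Efna3 1354, 1237 and 1425, Efna4 679, 770 and 625, Efnb1 1766, 1736 and 1590, Ntn1 378, 417 and 318, and Ntn4, a netrin of basement membranes, 1418, 1220 and 1144. Of the netrin receptors, Unc5a had 2571, 3309 and 3432 counts and Neo1 783, 646 and 658.

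By library, sham held the highest value of 16 of the 49 measured members, excision of 25 and PNU-282987 of 8, and the lowest value of 17, 12 and 20. The same tally was not made over all measured genes, so no trait of these members is read from it. The remaining 14 members had fewer than 20 counts everywhere. They were Efna2, Epha7, Epha8, Ntn5, Plxnb3, Robo2, Robo4, Sema3g, Sema4f, Sema5b, Sema6a, Sema6b, Sema7a and Slit1. Their counts ran from 0 to 19, and at this depth no statement on their direction is made. Where a library shows 0 counts, 3 counts remain possible, a level of 0.0768, 0.0808 or 0.0773 CPM.

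Genes that act beside these ligands and receptors were counted the same way. A list of 68 partner genes (further ligands and co-receptors, and effectors inside the cell) had 56 measured, of which excision against sham gave 2 higher and 3 lower, PNU-282987 against excision 2 higher and 2 lower, and PNU-282987 against sham 0 either way. In excision against sham those counts are near the shares over all measured genes (4.01% higher and 5.48% lower). The shares over all measured genes were 3.90% higher and 5.62% lower in PNU-282987 against excision, and 2.58% and 4.96% in PNU-282987 against sham. Dpysl3, a collapsin response mediator protein that acts in semaphorin signalling, had 1584, 306 and 844 counts. It showed the order of Slit2, at 4.92-fold below sham in excision (4.35 to 5.58) and 2.64-fold higher in PNU-282987 than in excision (2.31 to 3.01). Chn2, a Rac-inhibiting chimaerin, had 149, 58 and 128 counts (2.44-fold lower in excision, 1.79 to 3.37), and Kdr had 144, 55 and 89 (2.49-fold lower, 1.81 to 3.46). Srgap1, which acts downstream of Slit and Robo, had 67, 114 and 48 counts and was 2.48-fold lower in PNU-282987 than in excision (1.76 to 3.56), the reverse of Slit2. Cd72 and Fyn, also called, had fewer than 100 counts. Cd72, a Sema4d receptor of immune cells, had 16, 42 and 6, and Fyn, a kinase gene, 18, 38 and 22. In the same excision library 6 of 10 macrophage markers were higher than in sham (47.7, 80.0 and 54.6 CPM), and 4 of 4 measured T and NK cell markers were (0.205, 5.39 and 0.618 CPM, with Cd3d, Cd3g, Cd4, Cd8a and Klrd1 at 0 in sham and Cd3g and Klrd1 at 0 in PNU-282987). Cd72, the macrophage marker Mrc1 and the 4 T and NK cell markers reached the count minimum only through excision. They are high in that library. The part of macrophages and of T and NK cells in the Cd72 and Fyn differences was not tested.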

How the data were processed

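RNA of mouse cornea was sequenced in 3 libraries, 1 per group, made with the VAHTS Universal V6 kit, per the labels' protocols. The authors deposited whole-number counts of reads per gene, used as deposited. HTSeq and R 3.2.0 are named in the submitters' processing notes, and the sources used here name no aligner, genome build, annotation or strand setting. Columns were matched to samples by title. Total counts ran from 37692972 to 39616004.

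Counts were scaled with TMM factors (edgeR 4.0.16, R 4.3.3: 1.04, 0.985 and 0.980 in the order sham, excision, PNU-282987). A count of 0 was set to a floor of 3 counts per library. Intervals are exact conditional binomial (Clopper-Pearson) at 95%, with SciPy 1.17.1, and reflect counting error alone, as PCR copies of a molecule cannot be recognised without molecular identifiers. With 1 library per group no p-values were computed. Scaling to total counts, DESeq2 1.42.0 size factors, no count filter and a minimum of 50 counts were the alternatives. Plots used matplotlib 3.10.9.

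Members, partner lists and marker lists were chosen with earlier results of these data known, and 1 gene of the sensory neuron list is not reported here. Every measured member is named with its counts, called members also with ratio and interval, and called partners with at least 100 counts likewise. Cd72 and Fyn, further ratios of members that were not called, and the marker genes given by count were named after their values were seen. Sequences were printed for called members with at least 100 counts and for plexins called in opposite directions.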

Additional observations from a re-analysis of the deposited data

How the results depend on the processing

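No paired analysis was possible because each group has 1 library, and for the same reason no library could be left out. The 567 ratios of measured members under 4 alternatives changed direction in 0 called cases and gained or lost a call in 0, with 17 outside their main counting interval. Only total counts and DESeq2 size factors could change these ratios, because the count filters keep the main scaling. Members that a filter added or dropped are not among the 567, so their calls could not count as gained or lost. Under total counts and DESeq2 size factors the members called were the same in all 3 comparisons; DESeq2 size factors moved the median log2 ratio of members to 0.09 for excision against sham and -0.15 for PNU-282987 against sham. Total counts, which lowered the median of all genes by 0.08 in both comparisons with sham, gave member medians of 0.01 and -0.22, and 1 partner gene (Cd72) called lower in PNU-282987 than in sham, where the main value was 0. With no filter on low counts, 3 members were higher in excision than in sham (Epha7, Sema7a and Slit1, main value 0), 3 were lower in PNU-282987 than in excision (Epha7 and Slit1 beside Plxnd1, main value 1) and 2 were higher in PNU-282987 than in sham (Sema7a beside Plxnc1, main value 1), with medians of -0.17 for PNU-282987 against excision and -0.17 against sham, and 1 partner gene (Lingo1) lower in PNU-282987 than in sham. Without the filter the genes called over the whole table were 948 higher in excision than in sham (main value 568), 1240 lower in PNU-282987 than in excision (797), and 649 higher and 1080 lower in PNU-282987 than in sham (366 and 703). With a minimum of 50 counts 3 members were lower in excision than in sham (Slit2, Nrp2 and Sema3a, main value 5) and 0 higher in PNU-282987 than in sham (main value 1), the medians were 0.07, -0.15 and -0.17 for excision against sham, PNU-282987 against excision and PNU-282987 against sham, 0 partner genes were higher in excision than in sham (main value 2) and 1 was lower in PNU-282987 than in excision (main value 2). That minimum left 337 genes higher and 466 lower in excision against sham (568 and 777), 351 and 459 in PNU-282987 against excision (553 and 797), and 206 and 373 in PNU-282987 against sham (366 and 703), because fewer genes entered. Smaller changes in the number of genes called are not listed above. Without the filter Epha8, Ntn5 and Sema3g were also lower in PNU-282987 than in sham. Epha8 and the partner gene Rnd1 were also lower in excision than in sham, and Robo2 was higher in PNU-282987 than in excision. The minimum of 50 counts also dropped Plxnc1 from PNU-282987 against excision and Efnb3 from PNU-282987 against sham. Calls on Plxnc1, Plxna4, Ntn3 and Efnb3 rest on at most 31 counts in a library.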

Other observations

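The deposited annotation lists 110 further genes under axon guidance that are not among the ligands and receptors described, and 96 of them were measured. Excision against sham called 3 of these higher and 1 lower, PNU-282987 against excision 1 and 3, and PNU-282987 against sham 2 and 3. Over all measured genes the shares called higher and lower were 4.01% and 5.48% in excision against sham. They were 3.90% and 5.62% in PNU-282987 against excision, and 2.58% and 4.96% in PNU-282987 against sham. Each count among the 96 was a smaller share than that of all measured genes. Counts are again in the order sham, excision and PNU-282987, and the genes named were chosen after their values were seen. Myl9, a myosin light chain of contractile cells, had 675, 197 and 275 counts, and was 3.26-fold lower in excision (95% interval 2.77 to 3.84) and 2.44-fold lower in PNU-282987 (2.12 to 2.82) than in sham. Pik3cd, a leukocyte phosphoinositide kinase subunit, was 2.97-fold higher in excision (61 and 172 counts, 2.20 to 4.04). Ablim3, an actin-binding protein, had 27, 14 and 72 counts and was 4.92-fold higher in PNU-282987 than in excision (2.75 to 9.44). Cxcl12, a chemokine that also guides axons, had 26, 37 and 10 counts and was 3.87-fold lower in PNU-282987 than in excision (1.89 to 8.73).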
